A study of Homo sapiens with 18 samples.

Results

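BMP4, BMPR2, BAMBI, SMAD6, SMAD7, SMAD9, ID1, ID2, ID3 and ATOH8 are 10 genes of the bone morphogenetic protein (BMP) pathway, out of 60709 genes with counts. They were listed by name as targets and regulators of the pathway. The set was chosen by the log2 fold changes after docosahexaenoic acid (DHA) in cells with the control hairpin, where ATOH8 and ID3 were among the genes with the lowest values, so that contrast is described here without a test. All 10 passed the filter on low counts, ATOH8 through sh-LUC libraries alone. ID2 passed only through libraries of the treated groups in which it was high, so its rises below are not independent of the filter. The p-values of these rises are printed and counted, but nothing is read from them. The cells were MDA-MB-231, a triple-negative human breast cancer line. They carried a hairpin against luciferase (sh-LUC, genotype labelled WT) or one that knocks down IGFBP6 (sh-IGFBP6), whose product binds insulin-like growth factors outside the cell. Per the labels, both lines were given for 24 h either vehicle (0.5% DMSO with 0.5% ethanol), 200 µM DHA, an omega-3 fatty acid, or 2.5 µM erastin, which blocks cystine uptake and induces ferroptosis, an iron-dependent cell death by lipid peroxidation. For DHA the labels list 0.5% DMSO and for erastin 0.5% ethanol, with no amount of the other solvent. It is therefore not known whether the solvents of the treated groups matched the vehicle or each other. There were 3 samples in each of the 6 groups. Whether they were separate cultures, and whether each hairpin line was a pool or a clone, is not stated in the labels. The p-values therefore reflect the spread among the samples of a group, and that spread may be technical.

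BMP ligands bind pairs of type I and type II serine/threonine kinase receptors, which phosphorylate SMAD1, SMAD5 and SMAD9. These enter the nucleus with SMAD4 and switch on a small set of genes, the ID genes foremost. ID proteins lack a DNA-binding region and hold E proteins away from DNA, while SMAD6, SMAD7 and BAMBI are induced by the pathway and inhibit it. ATOH8 is a helix-loop-helix transcription factor that BMP signals induce in endothelium and liver.

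SMAD proteins contact DNA at the palindrome GTCTAGAC, its core GTCT and the GC-rich element GGCGCC, and these letters were searched on both strands of the 250 bases before each gene's RefSeq start (GRCh38.p14, all 10 genes matched, 14 promoters). The SMAD6 window is shown because it holds the palindrome, the first 75 bases of the BAMBI window because they hold all 3 of its copies of the GC-rich element, and ID1 and a 26-base stretch of ID3 because these ID genes lead the results below. Capitals mark matches on either strand (AGAC is GTCT read on the other strand), and GTCTAGAC contains GTCT on both strands.
SMAD6, chr15:66701986-66702235, plus strand: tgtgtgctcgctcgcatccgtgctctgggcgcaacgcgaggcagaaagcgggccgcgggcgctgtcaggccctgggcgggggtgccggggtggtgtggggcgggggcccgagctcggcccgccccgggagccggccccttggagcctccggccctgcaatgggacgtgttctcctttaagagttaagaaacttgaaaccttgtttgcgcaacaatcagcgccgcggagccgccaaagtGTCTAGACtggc
BAMBI, chr10:28677271-28677345, plus strand: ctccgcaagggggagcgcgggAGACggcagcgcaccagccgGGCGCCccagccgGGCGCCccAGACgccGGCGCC
ID1, chr20:31605039-31605288, plus strand: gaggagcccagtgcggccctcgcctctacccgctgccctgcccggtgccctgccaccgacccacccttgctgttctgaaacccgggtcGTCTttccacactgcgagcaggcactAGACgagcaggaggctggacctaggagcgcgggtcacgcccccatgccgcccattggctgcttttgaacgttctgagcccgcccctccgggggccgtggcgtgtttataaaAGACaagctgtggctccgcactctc
ID3, chr1:23559639-23559664, minus strand: ccgcgGTCTtcggcgtcAGACcagcc

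The palindrome stood 12 bases before the start of SMAD6, and 0.183% of all 34943 such windows hold it. BAMBI had 3 matches to GGCGCC, at 209, 196 and 181 bases before its start, and BMPR2 and BMP4 had 1 each, an element found in 16.4% of all windows. ID1 had 3 matches to GTCT and ID3 had 2, but 77.5% of all windows have at least 1. The ATOH8 window, whose sequence is not shown, had none of these motifs. A match describes the sequence only. The RefSeq starts of the 4 genes shown lie inside these genes as GENCODE 29 draws them, and all 26 bases shown for ID3 are exonic there, as are 8 of those shown for SMAD6, 6 for ID1 and 4 for BAMBI. In GENCODE 29 on GRCh38 the genes lie at chr2:85751344-85788066 (ATOH8, plus strand), chr20:31605283-31606515 (ID1, plus strand), chr1:23557918-23559794 (ID3, minus strand), chr15:66702228-66782848 (SMAD6, plus strand), chr14:53949736-53958761 (BMP4, minus strand) and chr10:28677342-28682939 (BAMBI, plus strand), all protein-coding.

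Gene counts per library ranged from 2708143 to 7977429 in 17 libraries. Replicate 3 of sh-IGFBP6 erastin stood apart with 609936 counts, of which 54.4% lay on mitochondrial ribosomal RNA against 0.0349% to 0.504% elsewhere, and the results that rest on it are given with it and, here or in the section on processing, without it. IGFBP6 averaged 19.4 ± 1.92 CPM in untreated sh-LUC cells and 1.39 ± 0.807 CPM in untreated sh-IGFBP6 cells (CPM, counts scaled to a common library size of 1e6 with TMM factors; mean ± SD, n = 3). The line's markers VIM, CD44, CAV1, AXL and FN1 were present in every group, at a summed 2575 to 7091 CPM. ESR1, PGR, CDH1 and GATA3, which the line should lack, summed to at most 18.9 CPM. Of 6 fibroblast markers, the summed level was 35.2 to 42.8 CPM in sh-LUC control, 25.8 to 30.2 CPM with DHA, 15.7 to 19.0 CPM with erastin and 0 to 12.6 CPM in the sh-IGFBP6 groups. Nearly all of it was COL1A1 in sh-LUC, while sh-IGFBP6 control averaged 6.17 CPM of COL1A1 and 2.27 CPM of COL3A1. Leukocyte markers summed to at most 5.31 CPM and endothelial markers to at most 9.34 CPM. These sums are low, and their part in the results was not tested. In bulk RNA, fewer cells of a type and less RNA per cell cannot be told apart.

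BMP4, the one ligand among the 10 genes, stood at 218, 219 and 218 CPM in sh-LUC control, 137, 124 and 139 CPM with DHA and 84.1, 92.2 and 97.8 CPM with erastin. In sh-IGFBP6 it stood at 23.5, 23.7 and 22.6 CPM in control, 14.7, 14.0 and 11.8 CPM with DHA and 17.8, 14.5 and 19.0 CPM with erastin. Every sh-LUC library was above every sh-IGFBP6 library, and only the erastin and DHA groups of sh-IGFBP6 overlapped. BMPR2, the type II receptor, was at 238, 244 and 257 CPM in sh-LUC control, 163, 179 and 172 CPM with DHA and 175, 195 and 175 CPM with erastin. The sh-IGFBP6 values were 99.97, 97.1 and 92.5 CPM in control, 95.2, 99.2 and 97.8 CPM with DHA and 110.3, 107 and 103 CPM with erastin. The lines were again fully separated, and in sh-IGFBP6 the control and DHA values overlapped. BAMBI, a receptor-like protein without a kinase that blocks signalling, was at 17.3, 17.4 and 15.6 CPM in sh-LUC control, 13.6, 13.8 and 11.5 CPM with DHA and 12.3, 14.3 and 11.9 CPM with erastin. Its sh-IGFBP6 values were 1.51, 0.578 and 1.97 CPM in control, 3.30, 4.22 and 2.76 CPM with DHA and 2.43, 3.57 and 11.4 CPM with erastin, from 5, 3 and 8 counts in the controls and 3 counts in erastin replicate 3. All its sh-LUC libraries lay above all sh-IGFBP6 libraries, the narrowest gap being to that shallow library.

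SMAD6, which blocks BMP receptors and SMAD1 complexes, was at 146, 145 and 132 CPM in sh-LUC control, 84.5, 71.2 and 86.3 CPM with DHA and 39.2, 44.8 and 47.7 CPM with erastin. In sh-IGFBP6 it was at 3.31, 3.85 and 4.43 CPM in control, 1.502, 2.62 and 2.01 CPM with DHA and 3.92, 5.88 and 11.4 CPM with erastin, the last from 29, 28 and 3 counts. The sh-LUC groups did not overlap each other, and all lay above every sh-IGFBP6 library. SMAD7, which blocks both BMP and TGF-beta receptors, was at 38.9, 44.5 and 41.4 CPM in sh-LUC control, 37.7, 27.6 and 33.7 CPM with DHA and 32.3, 31.3 and 36.3 CPM with erastin. Its sh-IGFBP6 levels were 6.32, 8.48 and 13.8 CPM in control, 31.5, 29.4 and 31.6 CPM with DHA and 21.7, 22.7 and 22.9 CPM with erastin. With DHA, the SMAD7 values of the lines overlapped, whereas their controls were far apart. SMAD9, the only BMP-activated SMAD among the 10 genes, was scarcer, at 9.34 to 11.7 CPM in sh-LUC control and 0 to 6.41 CPM in all other groups, with 0 counts in sh-IGFBP6 erastin replicate 3. Its sh-LUC controls lay above every other library.

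ID1 was at 122, 101 and 86.0 CPM in sh-LUC control, 29.1, 27.8 and 34.5 CPM with DHA and 20.9, 23.6 and 22.6 CPM with erastin. In sh-IGFBP6 cells ID1 was at 22.6, 20.4 and 25.4 CPM in control, 18.6, 18.9 and 26.1 CPM with DHA and 30.7, 32.3 and 22.9 CPM with erastin. The sh-LUC controls were far above the other 5 groups, each of which overlapped its neighbour in the order of means. ID3 was at 54.8, 58.3 and 51.3 CPM in sh-LUC control, 9.63, 4.52 and 10.6 CPM with DHA and 22.5, 20.7 and 22.1 CPM with erastin. In sh-IGFBP6 it was at 16.9, 16.8 and 25.4 CPM in control, 21.9, 20.8 and 22.1 CPM with DHA and 28.5, 26.5 and 53.3 CPM with erastin, where the last value rests on 14 counts. The lowest ID3 levels were those of sh-LUC cells with DHA, below every other library. ID2 was barely detected in both untreated lines, at 0, 0.902 and 1.68 CPM in sh-LUC control and 0, 0.771 and 0.738 CPM in sh-IGFBP6 control (0, 3 and 7 and 0, 4 and 3 counts). It was at 0.332, 0.116 and 0.682 CPM in sh-LUC with DHA and 7.69, 5.33 and 6.26 CPM with erastin. In sh-IGFBP6 it was at 6.61, 4.07 and 3.26 CPM with DHA and 3.51, 3.78 and 3.81 CPM with erastin, from 22, 28 and 13 and 26, 18 and 1 counts. The ID2 gene shares 38 exon bases with the antisense gene ID2-AS1, and the strand setting of the counting is not given, so reads of both may be mixed there. ATOH8 was at 29.01, 28.0 and 31.1 CPM in sh-LUC control (82, 93 and 130 counts), 0.996, 0.232 and 1.36 CPM with DHA (6, 2 and 10 counts) and 3.05, 4.66 and 4.47 CPM with erastin (21, 35 and 35 counts). It was near 0 in all sh-IGFBP6 groups, at 0, 0.771 and 0.492 CPM in control, 0, 0.145 and 0.251 CPM with DHA and 0.945, 0.630 and 0 CPM with erastin, from 0 to 7 counts per library. The 3 sh-LUC groups were separated from each other, and the DHA group overlapped sh-IGFBP6 cells.

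Per kilobase of exon, which allows levels of different genes to be compared, ID1 was the most abundant of the 10 in sh-LUC control at 83.7 CPM per kb, followed by BMP4 at 70.8 and ID3 at 30.5 CPM per kb. ATOH8 stood at 4.83 CPM per kb and ID2 at 0.390 CPM per kb.

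**Figure D1:**
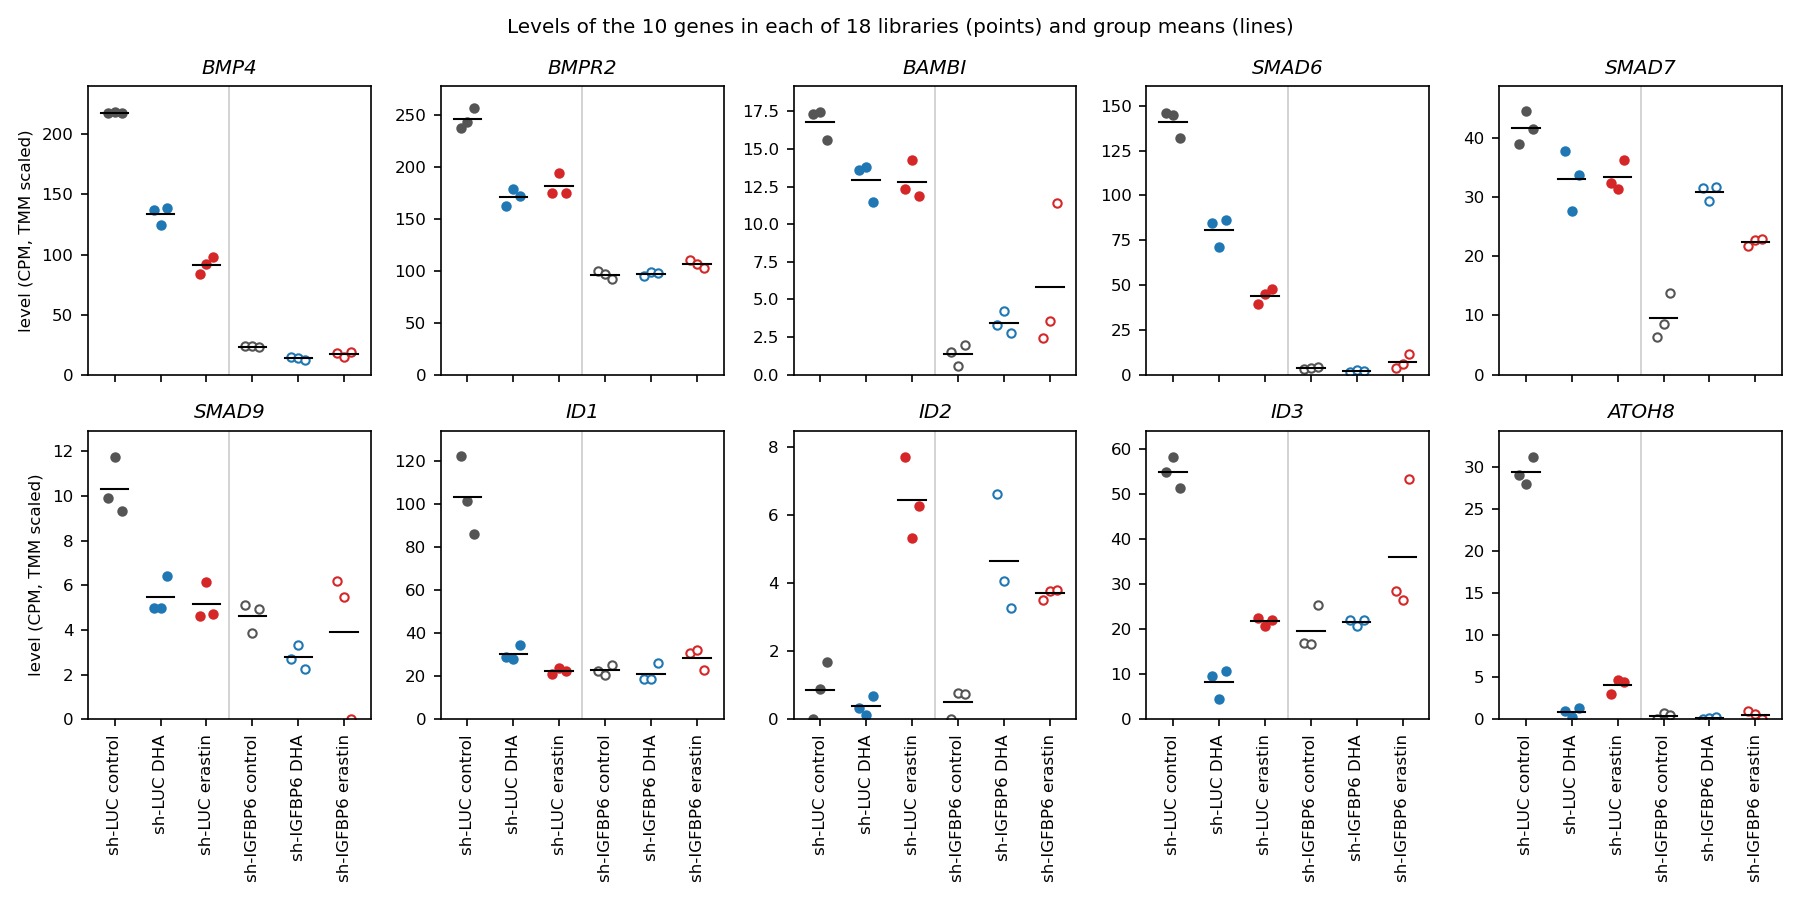
Level (CPM, linear axis from 0, a separate scale for each gene) of the 10 genes in the 18 libraries, with a point for each library and a line at each group mean; filled points are sh-LUC and open points sh-IGFBP6. Sh-LUC controls are highest for 9 genes by group mean, and ID2 is highest with erastin in sh-LUC.

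The untreated lines differed in nearly every one of these genes. Compared with sh-LUC, 9 of 10 were lower in sh-IGFBP6 cells at an adjusted p below 0.05 and ID2 did not pass, where 32.1% of all 15189 tested genes were called lower, 32.5% higher and 64.6% either way. The largest log2 differences were those of ATOH8 at -5.88 (SE 0.32, adjusted p = 3.4e-35), SMAD6 at -5.16 (SE 0.14, adjusted p = 5.7e-65), BAMBI at -3.69 (SE 0.29, adjusted p = 3.8e-23) and BMP4 at -3.23 (SE 0.088, adjusted p = 8.8e-65) by the quasi-likelihood test of edgeR, with Benjamini-Hochberg adjusted p-values. SMAD6 was 35.8-fold and ID1 4.50-fold lower in sh-IGFBP6. The log2 differences of the other genes were -2.17 for ID1, -2.11 for SMAD7, -1.48 for ID3, -1.35 for BMPR2 and -1.17 for SMAD9, with edgeR adjusted p-values from 4.6e-39 to 1.1e-05. ID2 had a log2 difference of -0.77 (SE 0.73, adjusted p = 0.359) by edgeR, with a 95% interval of -2.36 to 0.82. The median log2 difference of the 10 was -2.14, against 0.0062 over all tested genes. In the 9 genes called the control libraries of the lines did not overlap, as was so in 67.3% of all tested genes. The sh-LUC controls are the libraries that served to choose the genes, so these differences are not independent of the choice. ATOH8 also passed the low-count filter through sh-LUC libraries alone and had 6 counts in all sh-IGFBP6 controls. Nothing is therefore read from its p-value, though it is counted among the 9. Leaving out sh-IGFBP6 control replicate 2 moved the log2 difference of ATOH8 to -6.64.

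After DHA, every one of the 10 genes had a lower fitted level in sh-LUC cells. This is the contrast by which the genes were chosen, so no test is given and nothing is read from the 16.8% of all tested genes called in it (7.14% higher and 9.63% lower). ATOH8 had the lowest log2 fold change of all 15189 tested genes at -5.13 (SE 0.25), and ID3 the 8th lowest at -2.77 (SE 0.16). Among the 11518 genes that averaged 5 CPM or more they ranked 1st and 2nd, and ID1 ranked 8th at -1.74 (SE 0.094). SMAD9 followed at -0.91 (SE 0.21), SMAD6 at -0.81 (SE 0.074), BMP4 at -0.71 (SE 0.063) and BMPR2 at -0.52 (SE 0.060). SMAD7 and BAMBI both stood at -0.36, with SEs of 0.11 and 0.16, and their DHA libraries lay just below the controls. The exception in the libraries was ID2, at -1.35 (SE 0.70), whose DHA values lay within the range of the controls and whose log2 fold change ran from -2.11 to -0.39 with 1 library left out. The list has no threshold of its own, so no gene lies just inside or outside it.

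After erastin, 9 of the 10 genes fell in sh-LUC cells and ID2 rose. In this comparison 45.9% of all tested genes were called, 24.4% lower and 21.4% higher, and it shares its control libraries with the contrast that chose the genes. By log2 fold change, ATOH8 fell by 2.84 (SE 0.18, adjusted p = 1.0e-28, edgeR) and ID1 fell by 2.18 (SE 0.10, adjusted p = 1.3e-36). SMAD6 followed at -1.67 (SE 0.080, adjusted p = 9.0e-40) by edgeR, ID3 at -1.33 (SE 0.13, adjusted p = 2.3e-11) and BMP4 at -1.25 (SE 0.065, adjusted p = 2.1e-36). ID2 rose by 2.698 on the log2 scale (SE 0.40, edgeR adjusted p = 4.7e-09), from at most 7 counts per control library to at least 40 per erastin library. The low-count filter kept ID2 only through groups in which it was high, this erastin group among them. Without sh-LUC control replicate 3, the log2 fold change of ID2 was 3.65. SMAD9 at -0.99 (adjusted p = 4.0e-05) and BMPR2 at -0.44 (adjusted p = 1.8e-10) passed by edgeR with smaller changes, as did SMAD7 at -0.32 (adjusted p = 0.00954) and BAMBI at -0.38 (adjusted p = 0.0403). For all 10 genes the erastin libraries did not overlap the controls, as was so in 53.9% of all tested genes. The median of the 10 was -1.12, against -0.016 over all tested genes.

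The calls for SMAD7 and BAMBI depended on single libraries and settings. SMAD7 did not pass without the low-count filter (adjusted p = 0.0555), with DESeq2 (0.0572), or without sh-LUC control replicate 2 (0.0701) or erastin replicate 2 (0.0503). BAMBI was lost in 8 of 14 alternatives, among them DESeq2 (adjusted p = 0.241) and the fits without sh-LUC control replicates 1, 2 or 3, erastin replicates 1 or 3, or sh-IGFBP6 erastin replicate 3, with edgeR adjusted p from 0.0514 to 0.126. Library sizes alone, without TMM, put the median of all genes at -0.12 and changed the share of higher calls from 46.7% to 31.9%, while all 10 genes kept their direction and their call.

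The values of the compounds stand side by side here because both comparisons use the same sh-LUC controls. ATOH8 stood at -5.13 with DHA and -2.84 with erastin as log2 fold changes, and ID3 at -2.77 and -1.33. SMAD6 stood at -0.81 and -1.67, and BMP4 at -0.71 and -1.25. ID1 stood at -1.74 and -2.18. The DHA values are those that served to choose the genes, so no comparison of the compounds is drawn from them.

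**Figure D2:**
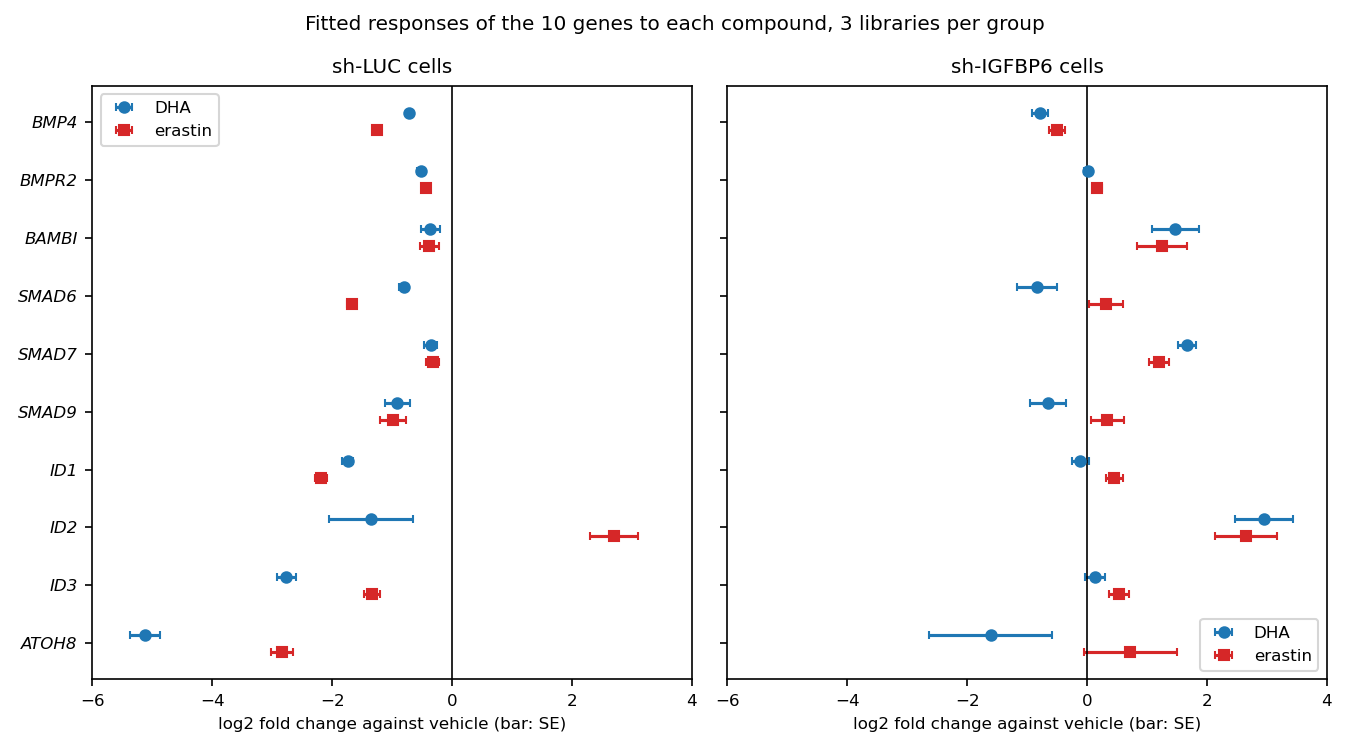
Log2 fold change against vehicle (x axis; bars are SE) of each gene after DHA (circles) and erastin (squares) in sh-LUC and in sh-IGFBP6 cells, 3 libraries per group. In sh-LUC, ID2 with erastin is the one point above 0. In sh-IGFBP6, SMAD7, BAMBI, ID2, ID3 and BMPR2 are above 0 with both compounds.

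After DHA in sh-IGFBP6 cells, SMAD7, ID2 and BAMBI rose and BMP4 and SMAD6 fell, while the other 5 genes did not pass. Over all tested genes 34.2% were called, 17.4% higher and 16.8% lower. SMAD7 rose by 1.67 on the log2 scale (SE 0.15, edgeR adjusted p = 2.0e-17), a 3.17-fold difference, and every DHA library was above every control. ID2 rose by 2.95 (SE 0.48, edgeR adjusted p = 1.7e-07) and BAMBI by 1.47 (SE 0.39, edgeR adjusted p = 0.00139). BMP4 fell by 0.78 on the log2 scale (SE 0.14, edgeR adjusted p = 8.3e-07), and SMAD6, on 5 to 20 counts per library, fell by 0.83 (SE 0.33, edgeR adjusted p = 0.0421). ID1, ID3 and BMPR2 did not pass, with log2 fold changes of -0.11, 0.13 and 0.018 and 95% intervals of -0.42 to 0.19, -0.24 to 0.50 and -0.14 to 0.17. SMAD9 stood at -0.65 (adjusted p = 0.0846) by edgeR. ATOH8 had 2 counts in all DHA libraries against 6 in the controls, a ratio of 0.295 with an exact binomial 95% interval of 0.0292 to 1.65 that covers counting error only. The median of the 10 was -0.047, against 0.0022 over all tested genes.

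These libraries did not enter the contrast that chose the genes, but the list and the tests were set with earlier results of these data known. The DHA libraries are among those through which ID2 passed the low-count filter. The SMAD6 call was lost in 7 of 14 alternatives, among them the fits without sh-IGFBP6 control replicates 2 or 3 or DHA replicates 1 or 3 (edgeR adjusted p from 0.0923 to 0.127). The BAMBI call was lost without control replicate 2 (edgeR adjusted p = 0.063). Library sizes alone changed the share of higher calls over all genes from 50.8% to 33.3%.

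After erastin in sh-IGFBP6 cells, 5 of the 10 genes rose, namely SMAD7, ID2, BAMBI, ID3 and ID1, and BMP4 fell. Over all tested genes 14.7% were called higher and 14.3% lower. The log2 fold changes were 2.65 (SE 0.52, adjusted p = 1.6e-05) for ID2, 1.20 (SE 0.17, adjusted p = 3.6e-09) for SMAD7 and 1.26 (SE 0.42, adjusted p = 0.0148) for BAMBI by edgeR. This erastin group is among those through which ID2 passed the low-count filter. ID3 rose by 0.53 (SE 0.17, edgeR adjusted p = 0.0138) and ID1 by 0.46 (SE 0.14, edgeR adjusted p = 0.00564). BMP4 fell by 0.49 on the log2 scale (SE 0.14, edgeR adjusted p = 0.00258), and each of its 3 erastin libraries was below the controls. SMAD6, SMAD9, ATOH8 and BMPR2 did not pass, with log2 fold changes of 0.31, 0.34, 0.72 and 0.17. With 1 library left out these values ran from 0.10 to 0.65 for SMAD6, 0.16 to 0.41 for SMAD9 and 0.29 to 1.49 for ATOH8, the last on 16 counts in all. The median of the 10 was 0.50, against 0.0036 over all tested genes. Without the shallow erastin replicate 3, 6 genes were still called, with SMAD7 at 1.20 (edgeR adjusted p = 8.5e-09), ID3 at 0.50 (0.013) and ID1 at 0.47 (0.0053).

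The smaller of these rises were not stable. Without control replicate 2, ID1 (edgeR adjusted p = 0.0677), ID3 (0.108) and BAMBI (0.205) no longer passed, and the log2 fold change of BAMBI was 0.80. ID3 was also lost without control replicate 1 (edgeR adjusted p = 0.0634), erastin replicate 1 (0.0966) and with DESeq2 (0.102), and BAMBI and BMP4 without erastin replicate 2 (0.0948 and 0.0702). Library sizes alone put the median of all genes at -0.19 and the share of higher calls at 23.1% instead of 50.5%, and ID1 (adjusted p = 0.233), ID3 (0.108) and BAMBI (0.0706) were then not called.

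Within sh-IGFBP6 cells the compounds were compared directly, and ID1, SMAD6 and SMAD9 were lower with DHA than with erastin and SMAD7 was higher. Over all tested genes 25.9% were called, 12.8% lower and 13.1% higher. ID1 was lower with DHA at a log2 difference of -0.57 (SE 0.13, adjusted p = 5.5e-04), SMAD6 at -1.14 (SE 0.32, adjusted p = 0.00348) and SMAD9 at -0.99 (SE 0.29, adjusted p = 0.00547) by edgeR. SMAD7 was higher with DHA at 0.47 (SE 0.13, adjusted p = 0.00414) by edgeR. ATOH8 had a log2 difference of -2.33 (adjusted p = 0.0485) by edgeR, but it rests on 2 counts with DHA against 10 with erastin in overlapping groups, and no sh-IGFBP6 library reached the level of the low-count filter. The ratio was 0.175, with an exact binomial interval of 0.0187 to 0.822, and ATOH8 is not counted as lower here. ID3 at -0.40, BMP4 at -0.29, BMPR2 at -0.15, BAMBI at 0.22 and ID2 at 0.30 did not pass, and the 95% interval for ID2 was -0.40 to 1.00. Without erastin replicate 3, the same number of genes passed. The adjusted p of ATOH8 was above 0.05 in 8 of 11 alternatives, among them every fit that left out one of DHA replicates 1, 2 and 3 or erastin replicates 1 and 2 (edgeR adjusted p from 0.062 to 0.325). SMAD7 (0.0695) and SMAD9 (0.138) were lost without erastin replicate 1 and SMAD6 (0.0677) without erastin replicate 2 as edgeR adjusted p, and library sizes alone changed the share of higher calls from 50.6% to 63.1%.

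The response to erastin was called different between the lines for 9 of the 10 genes, a count that includes ATOH8, from which nothing is read. The log2 response in sh-IGFBP6 minus that in sh-LUC was above 0 in all 9, a direction in which 14.1% of all tested genes were called, and 26.2% in either direction. It was 2.64 (SE 0.17, adjusted p = 6.4e-25) for ID1, 1.99 (SE 0.30, adjusted p = 4.3e-08) for SMAD6 and 1.86 (SE 0.21, adjusted p = 4.2e-09) for ID3 by edgeR's interaction test. It was 1.63 for BAMBI, 1.52 for SMAD7, 1.33 for SMAD9, 0.76 for BMP4 and 0.61 for BMPR2, with edgeR adjusted p-values from 6.5e-10 to 0.00278. ATOH8 had a difference of 3.57 (SE 0.80, adjusted p = 2.0e-04) by edgeR, but its sh-IGFBP6 libraries held 6 counts in control and 10 with erastin in all. Counts that low leave little room for a fall like that in sh-LUC, and ATOH8 passed the low-count filter through sh-LUC libraries alone. Nothing is therefore read from its value. The fitted responses of ATOH8, SMAD6, SMAD9 and BMPR2 were below 0 in sh-LUC and above 0 in sh-IGFBP6, where they were not called. ID1, ID3, SMAD7 and BAMBI were called lower in sh-LUC and higher in sh-IGFBP6. Of these, the falls of ID1 and ID3 and the rise of SMAD7 passed in every alternative. The falls of SMAD7 and BAMBI were lost in 4 and 8 of 14 alternatives, and the rises of ID1, ID3 and BAMBI in 2, 5 and 3 of 13. The ID1 erastin libraries also overlapped their controls in sh-IGFBP6. The share of all tested genes called in opposite directions in the lines was not counted. Whether such opposite calls are unusual is therefore not known. BMP4 fell in both lines, by less in sh-IGFBP6. ID2 had a difference of -0.045 (edgeR adjusted p = 0.997, 95% interval -1.82 to 1.73), having risen in both lines. The median of the 10, ATOH8 included, was 1.58, against 0.020 over all tested genes. These differences contain the sh-LUC controls and so are not independent of the choice of genes. All 9 were also called without sh-IGFBP6 erastin replicate 3. BAMBI was lost without sh-IGFBP6 control replicate 2 (edgeR adjusted p = 0.0596), which also moved ATOH8 to 4.33, and ATOH8 was lost without erastin replicate 1 (0.0636). With library sizes alone BMP4 (0.0988) and BMPR2 (0.462) were not called.

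**Figure D3:**
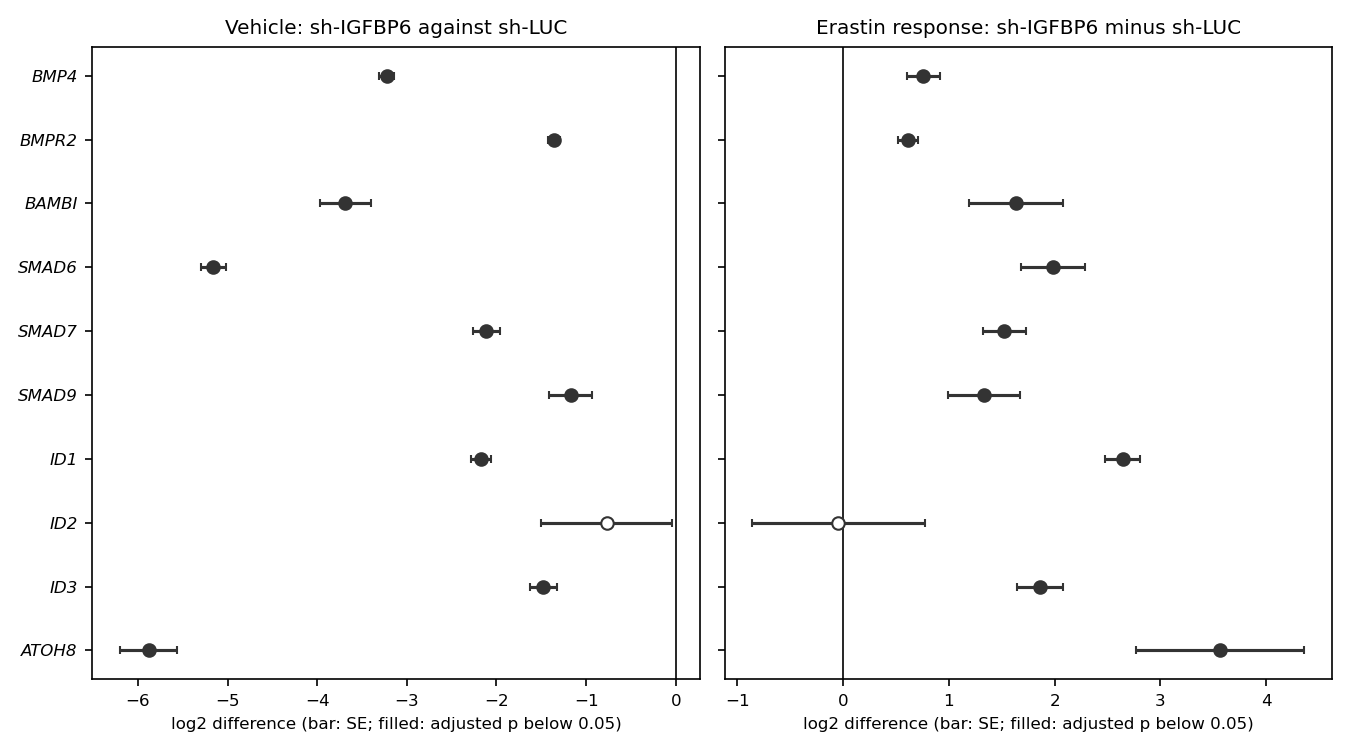
Log2 difference between the untreated lines (left) and log2 erastin response in sh-IGFBP6 minus that in sh-LUC (right) for each gene, with bars for SE and filled points for an adjusted p below 0.05; the panels have separate x scales. All points but ID2 are filled, left of 0 in the first panel and right of 0 in the second, where ATOH8 rests on few counts.

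The responses to DHA are given side by side, since the difference between lines contains the contrast that chose the genes and was not tested. SMAD7 stood at -0.36 in sh-LUC and 1.67 in sh-IGFBP6, and BAMBI at -0.36 and 1.47. For both genes every DHA library was below its controls in sh-LUC and above them in sh-IGFBP6. The share of all tested genes with this pattern was not counted. ID1 stood at -1.74 and -0.11, and ID3 at -2.77 and 0.13. BMP4 and SMAD6 had like values in both lines, -0.71 and -0.78 for BMP4 and -0.81 and -0.83 for SMAD6.

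Of 57 further genes of the pathway, 37 were tested. Between the untreated lines 13 were higher in sh-IGFBP6, 16 lower and 8 not called, with a median log2 difference of -0.12, where 32.5% of all tested genes were called higher and 32.1% lower. With erastin in sh-LUC 13 rose and 12 fell, against 21.4% and 24.4% of all tested genes. With DHA in sh-IGFBP6 13 rose and 11 fell, against 17.4% and 16.8%. With erastin in sh-IGFBP6 11 rose and 7 fell, against 14.7% and 14.3%, and the same counts were called without the shallow erastin replicate 3. The difference in erastin response was called above 0 in 10 and below 0 in 7, where 26.2% of all tested genes were called in either direction, and in 10 and 6 without that library.

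Among ligands, 2 of 12 were tested. In untreated sh-IGFBP6, 1 was higher and 1 lower, beside 32.5% and 32.1% of all tested genes. BMP6, a ligand of iron homeostasis, stood at 0.280 ± 0.303 CPM in sh-LUC and 4.20 ± 0.773 CPM in sh-IGFBP6 controls (SD, n = 3), a log2 difference of 3.78 (adjusted p = 1.2e-08) by edgeR. It had 3 counts in all sh-LUC controls and at most 1.91 CPM in any sh-LUC library. BMP6 thus passed the low-count filter through sh-IGFBP6 libraries alone, and nothing is read from its p-value, though it is counted. Of 9 tested receptors and co-receptors, 4 were higher and 2 lower, again beside 32.5% and 32.1% of all tested genes. Endoglin, the co-receptor encoded by ENG, was lower in sh-IGFBP6 at -2.43 (adjusted p = 1.2e-41) and fell with erastin in sh-LUC at -2.13 (adjusted p = 4.9e-42) by edgeR. The co-receptor RGMA rose with erastin in both lines, at 2.01 (adjusted p = 0.00276) in sh-LUC and 1.94 (adjusted p = 1.1e-08) in sh-IGFBP6 by edgeR, from 0.475 ± 0.412 and 2.84 ± 0.710 CPM in the controls. The type II receptor ACVR2B rose with erastin in sh-LUC at 0.34 (adjusted p = 0.00485) and in sh-IGFBP6 at 0.36 (adjusted p = 0.00212) by edgeR. Without sh-IGFBP6 erastin replicate 3 the values in that line were 1.95 for RGMA and 0.38 for ACVR2B.

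SMAD1, activated by BMP receptors as SMAD9 is, stood at 4.35 ± 0.693 CPM in sh-LUC and 24.3 ± 1.75 CPM in sh-IGFBP6 controls, a log2 difference of 2.51 (adjusted p = 5.8e-22) by edgeR. It rose with erastin in sh-LUC (0.63, adjusted p = 0.028, edgeR) and fell in sh-IGFBP6 with erastin (-0.46, adjusted p = 0.00921) and DHA (-0.95, adjusted p = 3.9e-08). Its difference between lines in erastin response was -1.09 (adjusted p = 0.00165) by edgeR, opposite in sign to that of SMAD9. Without the shallow library its erastin response in sh-IGFBP6 was -0.45 (edgeR adjusted p = 0.012) and the difference between lines -1.11 (0.00152). SMAD4, the shared partner of all activated SMADs, was lower in sh-IGFBP6 by a log2 difference of -0.28 (adjusted p = 0.00496) by edgeR. SMAD5 passed in none of the 6 tested comparisons, and its log2 difference between the untreated lines was -0.033 (SE 0.077, edgeR adjusted p = 0.724).

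Secreted antagonists bind BMPs outside the cell. Of 7 tested, 3 were higher and 3 lower in untreated sh-IGFBP6, beside 32.5% and 32.1% of all tested genes. Follistatin (FST) stood at 41.2 ± 4.38 and 115 ± 1.046 CPM in the sh-LUC and sh-IGFBP6 controls, and its log2 fold change with DHA in sh-IGFBP6 was -0.89 (adjusted p = 1.7e-18) by edgeR. BMPER, a BMP-binding protein, fell in sh-IGFBP6 with DHA at -1.70 (adjusted p = 8.6e-18) and with erastin at -0.86 (adjusted p = 6.7e-07) by edgeR, and rose with erastin in sh-LUC at 0.47 (adjusted p = 0.0274). The erastin value of BMPER in sh-IGFBP6 was -0.84 without the shallow library. In sh-IGFBP6, 5 of the 7 antagonists fell with DHA and 1 rose, beside 16.8% and 17.4% of all tested genes, with TWSG1 at -0.36 (adjusted p = 1.1e-04) by edgeR.

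Among 8 tested intracellular inhibitors, 5 rose and 1 fell with DHA in sh-IGFBP6, where 17.4% of all tested genes rose and 16.8% fell. The ubiquitin ligase SMURF1 rose by 0.69 (edgeR adjusted p = 8.2e-13) and the SMAD co-repressor SKI by 0.35 (edgeR adjusted p = 1.6e-05), while the ligase SMURF2 fell by 0.31 on the log2 scale (edgeR adjusted p = 2.5e-06). Of 5 other tested BMP targets, 4 rose and 1 fell in that comparison, beside the same shares of all tested genes. ID4, the remaining ID gene, stood at 91.4 ± 8.25 CPM in sh-LUC and 2.81 ± 0.924 CPM in sh-IGFBP6 controls, a log2 difference of -4.96 (adjusted p = 2.7e-56) by edgeR. It fell with erastin in sh-LUC (-0.62, adjusted p = 1.8e-10, edgeR) and rose in sh-IGFBP6 with erastin (1.25, adjusted p = 2.1e-04) and DHA (0.82, adjusted p = 0.0209). Without the shallow library its erastin value in sh-IGFBP6 was 1.21 (edgeR adjusted p = 3.9e-04). HES1, a repressor also driven by Notch, fell with erastin in sh-LUC at -1.20 (adjusted p = 5.2e-14) and rose with DHA in sh-IGFBP6 at 2.10 (adjusted p = 6.6e-11) by edgeR. RUNX2, a bone transcription factor, was lower in untreated sh-IGFBP6 at -2.03 (adjusted p = 3.5e-39) by edgeR. The untreated lines differed in both directions in this role, with 2 of the 5 targets higher in sh-IGFBP6 and 3 lower. Of all tested genes, 32.5% were higher and 32.1% lower there.

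The E proteins are the partners that ID proteins bind. TCF4 was higher in untreated sh-IGFBP6 at 2.37 (adjusted p = 7.2e-29) by edgeR, from 8.82 ± 0.893 CPM in sh-LUC to 46.0 ± 9.81 CPM, and it fell with DHA in sh-IGFBP6 at -0.71 (adjusted p = 9.4e-08). TCF12 was lower at -0.28 (adjusted p = 0.00244) by edgeR, and TCF3 had a log2 difference of 0.10 (adjusted p = 0.229).

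**Figure D4:**
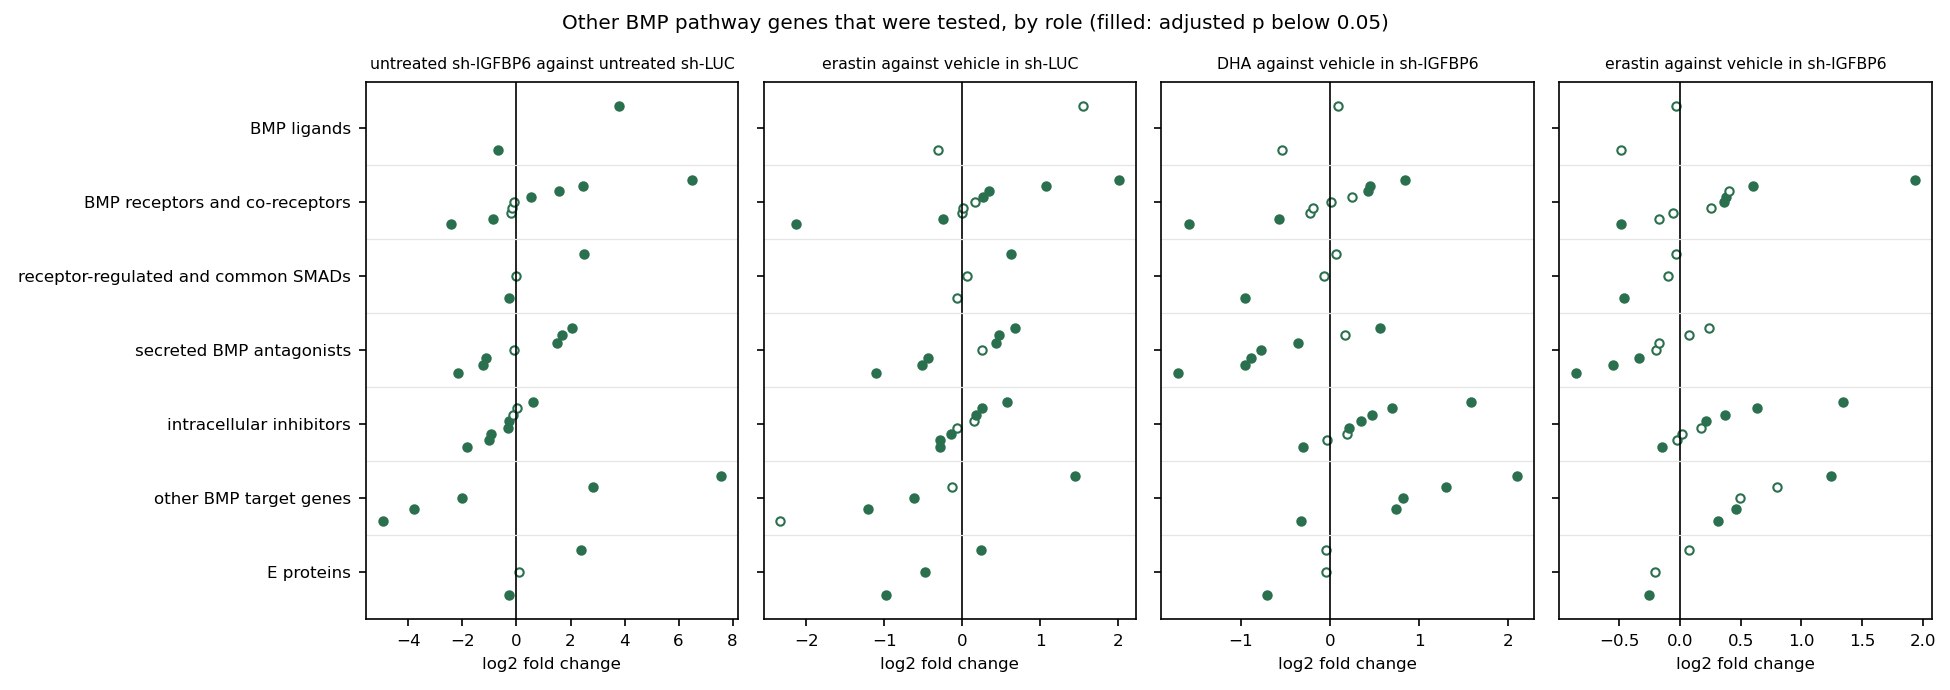
Log2 fold change (x axis, a separate scale for each panel) of the 37 tested pathway genes outside the list of 10, by role, in 4 comparisons; filled points have an adjusted p below 0.05. Called genes lie on both sides of 0 in the untreated lines (13 higher, 16 lower), and in sh-IGFBP6 with DHA 4 of 5 other BMP targets are called above 0.

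Genes whose levels tracked ATOH8 and ID3 were sought among 11517 genes averaging 5 CPM or more, over the 17 libraries without sh-IGFBP6 erastin replicate 3, by Pearson's r of log2 CPM. These values describe 6 groups that share lines and treatments, and no test is attached. The 5 most like ATOH8 were SPTAN1 (r = 0.93), BIRC2 (0.92), RHOBTB3 (0.91), IFITM3 (0.90) and MYL12B (0.89). With all 18 libraries, SPTAN1 and RHOBTB3 stayed among the 5 most like it. The 5 most like ID3 were BIRC3 (r = 0.86), FRMD3 (0.86), IFITM2 (0.81), SOCS3 (0.80) and APLP2 (0.79). Among the 10 genes themselves, r with ATOH8 was 0.87 for BMPR2, 0.83 for ID1 and 0.66 for ID3, and r with ID3 was 0.62 for ID1 and 0.084 for BMP4.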

How the data were processed

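Total RNA of 18 MDA-MB-231 samples, 3 per group, was sequenced after ribosomal RNA depletion, per the labels' protocols. The authors deposited whole-number gene counts. The tools in the submitters' processing notes are cutadapt 4.4, STAR 2.7.7a (build GRCh38) and featureCounts. Neither the annotation release nor the strand setting is given in the sources used here. Lines naming no gene held at most 0.0108% of a library and were left out.

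Genes kept by filterByExpr (minimum count 10, minimum total 15) were 15189. The count model was that of edgeR 4.0.16 (R 4.3.3), with TMM scaling, all 18 libraries, 1 coefficient per group and robust quasi-likelihood F tests on 12 residual degrees of freedom, and Benjamini-Hochberg adjusted p-values below 0.05 over all these genes were called. The biological coefficient of variation was 6.29%. Depth ran from 609936 to 7977429 counts, and low counts limit ATOH8 and ID2 most. DESeq2 1.42.0, other scalings and filters, a replicate block and leaving out libraries were alternatives. The method was also run on simulated data, with changes set only in genes averaging at least 10 fitted counts in the compared groups. That run does not cover genes below this level, such as ATOH8 in sh-IGFBP6. Coordinates of promoters are RefSeq's on GRCh38.p14.

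The 10 genes, the pathway list and the tests were chosen with earlier results of these data known. Pathway genes are named by a rule of up to 3 per role, those called in most comparisons first and then those with the highest mean level, and SMAD5 was added after its values were seen.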

Additional observations from a re-analysis of the deposited data

Results flagged for a closer look

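The response to erastin in sh-IGFBP6 minus that in sh-LUC passed edgeR's interaction test for 9 of the 10 genes, which is what marked them out, where 14.1% of all tested genes were called in that direction and 26.2% in either. The test contains the sh-LUC controls by which the genes were chosen. On the log2 scale the difference was 2.64 for ID1, 1.99 for SMAD6, 1.86 for ID3, 1.63 for BAMBI, 1.52 for SMAD7, 1.33 for SMAD9, 0.76 for BMP4 and 0.61 for BMPR2. It was 3.57 for ATOH8, on 6 and 10 counts in the sh-IGFBP6 groups, and nothing is read from that value. ATOH8, BAMBI, BMP4 and BMPR2 each lost the call in 1 alternative.

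With DHA, every sh-LUC library of SMAD7 and BAMBI was below its controls and every sh-IGFBP6 library above. The log2 fold changes were -0.36 and 1.67 for SMAD7 and -0.36 and 1.47 for BAMBI, and the difference between lines was not tested. How many of all tested genes show this pattern was not counted. With erastin in sh-LUC, treated and control libraries did not overlap in 53.9% of all tested genes. The sh-LUC part is the contrast that chose the genes, so nothing beyond these values is read from the pattern.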

How the results depend on the processing

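Over 997 recomputed values of single genes, 925 kept direction and side of the threshold or, for the untested DHA in sh-LUC, stayed within the replicate spread. Of the others, 48 lost and 4 gained the call and 17 changed sign. The remaining 3, all for DHA in sh-LUC, moved by more than the replicate spread. In the other comparisons the size of a shift was not counted, and ATOH8 in the untreated lines went from -5.88 to -6.64 with 1 library left out. The number of the 10 genes called changed by more than 1.5 times in some settings. With library sizes alone it was 3 (against 6) for erastin and 3 (against 5, ATOH8 included) for DHA against erastin in sh-IGFBP6, and with DESeq2 it was 3 in the latter. Leaving out 1 library gave 3 to 5 genes for DHA and 3 to 6 for erastin in sh-IGFBP6 and 2 to 5 for DHA against erastin. In the latter 2592 of all tested genes were called without sh-IGFBP6 erastin replicate 1, against 3928. Library sizes alone gave, over all tested genes, 4571 calls (against 6967) for erastin in sh-LUC, 2579 (5202) for DHA and 2728 (4404) for erastin in sh-IGFBP6, 1541 (3928) for DHA against erastin and 1327 (3973) for the difference between lines, and DESeq2 gave 2422 for DHA against erastin. The cause was not tested.

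Sign changes occurred only in genes not called. For BMPR2 with DHA in sh-IGFBP6 the log2 fold change was -0.0051 with DESeq2 size factors, -0.068 with library sizes alone, -0.011 without a filter, -0.0052 with DESeq2 and -0.026 to 0.039 with 1 library left out. With library sizes alone BMPR2 was at -0.13 for erastin and 0.058 for DHA against erastin in sh-IGFBP6. With 1 library left out, values ran from -0.27 to 0.0014 for ID1 and -0.0013 to 0.34 for ID3 with DHA, from -0.16 to 0.38 for BAMBI in DHA against erastin, from -1.23 to 0.19 for ID2 in the untreated lines and from -0.999 to 0.41 for ID2 in the difference between lines.

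The main fit did not pair libraries by the number in their labels. The correlation of the deviations of libraries with the same number had a median of 0.017 over 45 pairs, from -0.071 to 0.15. For libraries with other numbers the median was -0.0069, from -0.12 to 0.11. Such values cannot show whether samples of 1 number were handled together. With a replicate block, 10, 5, 6, 9 and 9 genes were called for erastin in sh-LUC, DHA and erastin in sh-IGFBP6, the untreated lines and the difference between lines, as without it. For DHA against erastin 6 were called instead of 5, the added gene being ID3 at -0.42 (edgeR adjusted p = 0.0259). A filter of at least 1 CPM in 9 libraries left ATOH8 out, so it has no value there. In sh-IGFBP6, counts of at most 7 per library limit what can be said of ATOH8. Chosen after seeing the data, the fit without sh-IGFBP6 erastin replicate 3 was repeated for the other pathway genes. Of 74 values 72 kept their direction and side of the threshold. LEMD3 with erastin in sh-IGFBP6, not called, went to 4e-04, and FSTL3 lost its difference between lines at -0.42 (edgeR adjusted p = 0.0516).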
